A study of Mus musculus with 10 samples.

Results

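Antibodies with a κ light chain carry a CDR3 loop that is encoded at the join of a Vκ and a Jκ gene segment, and in most of these chains the loop is 9 amino acids long. The chains described here are those that depart from this length. They were selected on the deposited CDR3 sequences: of 44103 clonotypes in 6 Igk libraries, 38539 were listed as productive, and 9487 of these had a CDR3 of another length than 9. They form 2 classes, 4798 short clonotypes with 8 or fewer amino acids and 4689 long clonotypes with 10 or more. The remaining 29052 productive clonotypes, with 9 amino acids, serve as the comparison. A clonotype is 1 combination of V gene, J gene and CDR3 amino acid sequence within a library, and its total is the number of reads that carried it.

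The libraries were made from genomic DNA of cells sorted from the peritoneal cavity of C57BL/6 mice aged 6 to 8 weeks. The 3 groups were wild-type (WT) B-1a cells, Igll1-/- B-1a cells and WT B-2 cells, with 2 libraries each (replicates 1 and 2). Igll1 encodes λ5, a part of the surrogate light chain (SLC) that pairs with the heavy chain in the pre-BCR before a light chain has been made, and the deletion is present in every cell of the Igll1-/- animals. B-1a cells are long-lived B cells of the body cavities with a receptor repertoire biased towards self and bacterial antigens, whereas B-2 cells are the conventional B cells. The tables hold receptor sequences only, so the sorted cell types could not be checked against marker genes. Nor do the labels give the number of mice behind a library. Productive clonotypes numbered 4946 to 7662 per library and rested on 207931 to 282442 reads, so that 3 clonotypes correspond to 0.0392% to 0.0607% of a library.

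Most germline Vκ genes end in a proline codon, and Jκ supplies the last residues of the loop, which are commonly Trp-Thr from Jκ1, Tyr-Thr from Jκ2, Phe-Thr from Jκ4 and Leu-Thr from Jκ5. Trimming of the coding ends before ligation, and the few nucleotides added there, shift the length by single codons. A loop can therefore be short because its V gene encodes fewer residues or because the join lost a codon, and long because the join kept or gained one. The following CDR3s recurred in all 6 libraries and are shown because they display these ends. The first lines are short loops and the later ones long loops, each under its V gene.

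IGKV8-21: KQSYNLLT, joined to IGKJ5.
IGKV8-21: KQSYNLWT, joined to IGKJ1.
IGKV8-21: KQSYNLYT, joined to IGKJ2.
IGKV8-27: HQYLSSLT, joined to IGKJ5.
IGKV8-27: HQYLSSYT, joined to IGKJ2.
IGKV8-30: QQYYSYLT, joined to IGKJ5.
IGKV1-110: SQSTHVPPLT, joined to IGKJ5.
IGKV1-110: SQSTHVPPYT, joined to IGKJ2.
IGKV1-110: SQSTHVPPWT, joined to IGKJ1.
IGKV5-48: QQSNSWPTLT, joined to IGKJ5.
IGKV4-77: QQWSSSPPIT, joined to IGKJ5.

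The J gene named in each line held between 97.6% and 100% of the reads of that CDR3. In the short loops the V-encoded stem ran straight into the J residues without a proline. In the 3 loops of IGKV1-110 and the loop of IGKV4-77, 2 prolines stood before the last 2 residues. The loop of IGKV5-48 carried 1 proline, before its last 3 residues.

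The lengths around 9 were spread unevenly. CDR3s of exactly 8 residues made up 86.2% of the short class, and CDR3s of exactly 10 residues made up 71.7% of the long class. Lengths reached from 3 to 61 residues. Just inside the limits, loops of 8 residues took 11.2% and 9.87% of the productive clonotypes in WT B-1a, 10.5% and 8.56% in Igll1-/- B-1a and 11.4% and 12.3% in WT B-2 libraries. Loops of 10 residues took 8.96% and 8.48% in WT B-1a, 8.05% and 6.44% in Igll1-/- B-1a and 10.5% and 9.24% in WT B-2 libraries. Just outside both limits, the 9-residue loops took 72.1% to 79.4%. At 7 residues the 3 groups did not overlap, with 0.864% and 1.11% in WT B-1a, 1.62% and 1.29% in Igll1-/- B-1a, and 1.83% and 1.97% in WT B-2 libraries.

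**Figure D1:**
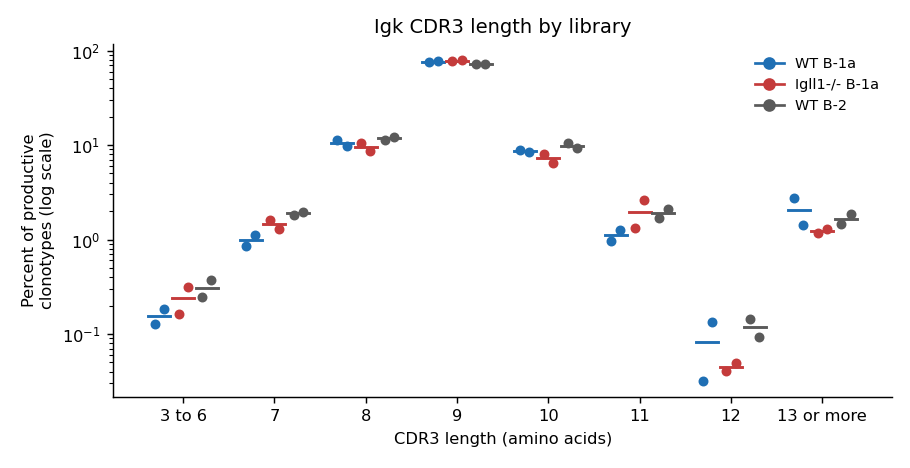
Percent of productive Igk clonotypes (log scale) at each CDR3 length in amino acids. Points are the 6 libraries and bars the group means of 2 libraries. Length 9 holds 72.1% to 79.4% of every library, and lengths 8 and 10 hold most of the rest.

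The first question was whether B-1a cells of either genotype and B-2 cells carry unusual lengths equally often. Short CDR3s made up 12.2% and 11.2% of productive clonotypes in WT B-1a, 12.2% and 10.2% in Igll1-/- B-1a and 13.4% and 14.7% in WT B-2 libraries. Both WT B-2 libraries thus lay above all 4 B-1a libraries, whereas the genotypes of B-1a cells overlapped. The group means were 11.7% ± 0.72, 11.2% ± 1.46 and 14.0% ± 0.87 (SD, n = 2 each). Long CDR3s made up 12.7% and 11.3% in WT B-1a, 10.6% and 10.4% in Igll1-/- B-1a and 13.7% and 13.3% in WT B-2 libraries, with means of 12% ± 0.99, 10.5% ± 0.13 and 13.5% ± 0.33 (SD, n = 2 each). Here the 3 groups did not overlap, with Igll1-/- B-1a lowest and WT B-2 highest. With 2 libraries against 2, a two-sided exact permutation test cannot go below p = 0.3333, and that value was reached for all 3 comparisons of the long share and for both comparisons of the short share with WT B-2 cells (exact p = 1 for Igll1-/- against WT B-1a cells). Counting error alone gave 95% Wilson intervals such as 12.7% to 14.2% for the short share of WT B-2 replicate 1. PCR reads without molecular identifiers are not independent molecules, so these intervals cover counting error only.

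Among clonotypes with at least 10 reads, short CDR3s took 16.2% and 15.7% in WT B-1a, 14.3% and 9.22% in Igll1-/- B-1a and 21.3% and 22.4% in WT B-2 libraries. Long CDR3s took 12.6% and 12.7%, 10.5% and 9.46%, and 20.6% and 19.5% in the same order. All groups were then apart in both classes, and the difference between Igll1-/- B-1a and WT B-2 cells grew to -10.1 percentage points in each class (exact p = 0.3333). By reads the classes were smaller everywhere. Short CDR3s held 8.54% and 7.41% of productive reads in WT B-1a, 9.09% and 6.85% in Igll1-/- B-1a and 8.91% and 9.53% in WT B-2 libraries, and Igll1-/- B-1a and WT B-2 values overlapped. Long CDR3s held 5.17% and 5.02%, 5.09% and 5.51%, and 6.65% and 6.00%, so that WT B-2 libraries were highest and the B-1a genotypes overlapped. When every library was standardized to the same mean V gene use over the V genes found in all 6, both shares were again highest in WT B-2 cells. The short share was then 12.4% ± 0.84, 12.1% ± 1.95 and 14.2% ± 0.96 and the long share 12.1% ± 0.72, 10.2% ± 0.42 and 13.7% ± 0.61 (SD, n = 2 each) in WT B-1a, Igll1-/- B-1a and WT B-2 cells. The labels give WT B-1a replicate 1 and WT B-2 replicate 1 library names of one style and the other 4 libraries names of another. WT B-1a minus WT B-2 came to -1.24 and -3.49 percentage points within these styles for the short share, and to -1.04 and -1.98 for the long share.

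**Figure D2:**
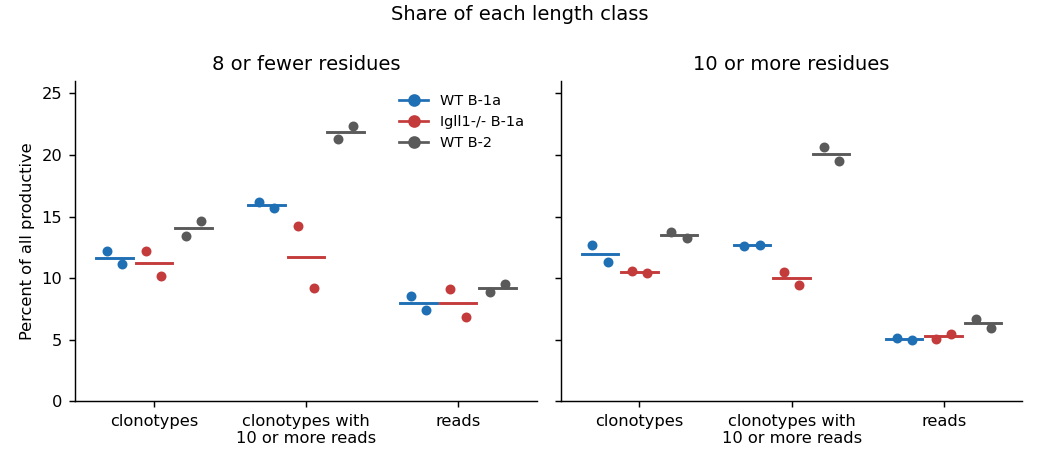
Percent of all productive clonotypes, of those with at least 10 reads, and of productive reads that fell in the short class (left) and the long class (right). Points are libraries and bars group means of 2. WT B-2 libraries lie highest among clonotypes with at least 10 reads, at 21.3% and 22.4% for short and 20.6% and 19.5% for long CDR3s.

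The long class held a separate set of very long loops. CDR3s of 13 or more residues numbered 645, or 13.8% of the long class, but carried only 1113 reads, and 96.6% of them rested on 1 read. They made up 21.5% of the long class in WT B-1a replicate 1 and 10.5% to 14.0% in the other 5 libraries. Of the 645, 553 contained inside the deposited CDR3 a motif that normally flanks the loop: Tyr followed by Tyr, Phe or His and Cys, which precedes a CDR3, in 493, or Phe-Gly-x-Gly-Thr, which follows it, in 270. In 14 of them the last 9 residues were QQDYSSPLT, and 4 of these had at least 10 reads, 1 each under IGKV8-30, IGKV8-24, IGKV8-28 and IGKV8-27. The part of these loops in the results was measured by leaving them out. The long share was then 10.1% ± 0.15 in WT B-1a, 9.36% ± 0.22 in Igll1-/- B-1a and 12.1% ± 0.59 in WT B-2 cells (SD, n = 2 each), and the 3 groups again did not overlap. The difference between the B-1a genotypes shrank from -1.52 to -0.78 percentage points. Loops of 11 or more residues alone took 2.53% to 4.04% of productive clonotypes, and all groups overlapped. How the reads of the very long loops arose was not tested.

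V genes differed widely in how often they gave an unusual length. Among 70 V genes with at least 100 productive clonotypes, short CDR3s made up a median of 7.70% of a gene's clonotypes. In 3 genes they were the usual form: 91.0% of the 368 clonotypes of IGKV8-27, 72.9% of the 605 of IGKV8-21 and 53.4% of the 436 of IGKV4-80. Over the 6 libraries these shares ran from 83.8% to 95.8%, from 62.5% to 79.8% and from 41.8% to 61.0%, so the order of IGKV8-27 above IGKV8-21 above IGKV4-80 held without overlap. No V gene had most of its clonotypes in the long class, whose median was 9.71%. The highest long shares belonged to IGKV4-50 (36.2% of 149), IGKV4-77 (31.6% of 548), IGKV4-55 (27.4% of 698) and IGKV4-72 (25.4% of 613), all of the IGKV4 family, and their ranges over libraries overlapped. IGKV1-110 had 21.6% long clonotypes and, being a much used gene, supplied 9.96% of the whole long class. IGKV8-21, IGKV8-27 and IGKV8-30 supplied 9.19%, 6.98% and 6.23% of the short class, or 22.4% together.

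**Figure D3:**
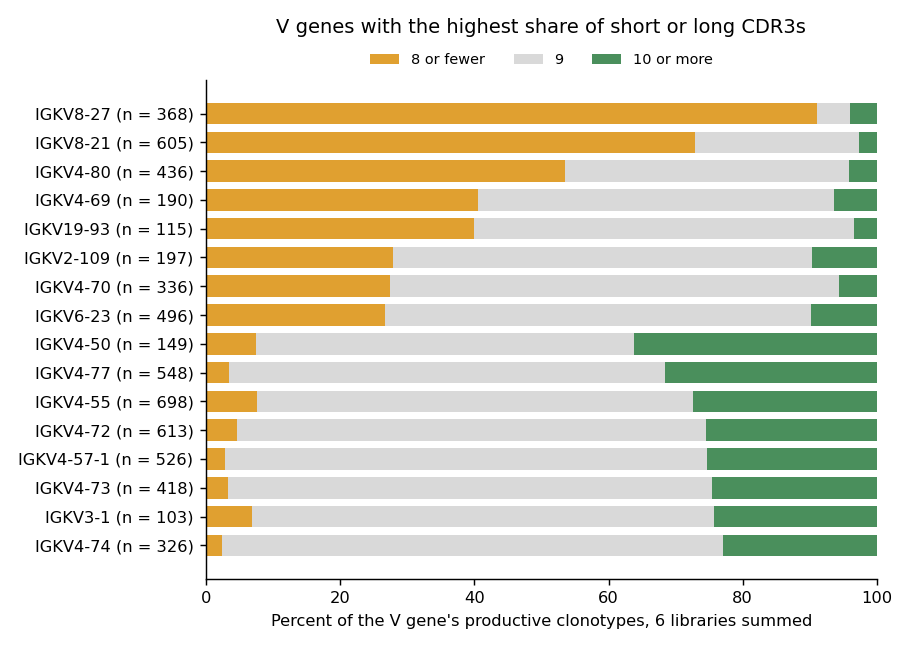
Make-up of V genes by CDR3 length class, as percent of the productive clonotypes of each gene summed over 6 libraries (n in brackets). The 8 genes with the highest short share and the 8 with the highest long share are shown. IGKV8-27, IGKV8-21 and IGKV4-80 have mostly short loops, whereas genes of the IGKV4 family lead the long class.

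By family, IGKV8 genes made up 26.5% ± 7.8 of short clonotypes against 9.40% ± 0.54 of those with 9 residues (SD, n = 6 libraries). They were more frequent among the short in 6 of 6 libraries (exact sign-flip test, two-sided p = 0.03125). IGKV4 genes made up 38.3% ± 3.1 of long, 26.3% ± 2.4 of 9-residue and 21.0% ± 2.7 of short clonotypes, and the order was the same in 6 of 6 libraries (exact sign-flip p = 0.03125 for either class against 9 residues). IGKV1 genes made up 17.6% ± 5.3 of long and 12.7% ± 1.4 of 9-residue clonotypes, again higher in 6 of 6 libraries (exact p = 0.03125). By group, IGKV1 genes made up 24.3% ± 0.55 of long clonotypes in Igll1-/- B-1a, 14.5% ± 2.04 in WT B-1a and 13.8% ± 1.3 in WT B-2 cells (SD, n = 2 each), and both Igll1-/- libraries lay above the other 4 (exact p = 0.3333, adjusted p = 0.75 over 18 comparisons of V families). The p-value of 0.03125 is the smallest that 6 libraries allow, and over the 34 such comparisons made it was 0.0506 after Benjamini-Hochberg adjustment, so that none passed 0.05. These tests were chosen after the values had been seen.

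The ends of the loops differed between classes as plainly as the V genes did. Of the 9-residue CDR3s, 84.4% ± 0.83 ended in Pro-x-Thr, where x is any residue (SD, n = 6). Of the 8-residue CDR3s, only 5.67% ± 1.41 did, while 64.5% ± 2.6 ended in Thr without a proline in the last 4 residues and 21.4% ± 2.7 ended in Pro-Thr. Of the 10-residue CDR3s, 48.7% ± 4.3 ended in Pro-Pro-x-Thr and 33.5% ± 5.6 in Pro-x-x-Thr with a single proline there. An ending in Ile-Thr was found in 15.0% ± 2.9 of 10-residue, 1.26% ± 0.52 of 9-residue and 0.351% ± 0.407 of 8-residue CDR3s. Over whole classes, a proline just before the last 2 residues stood in 91.7% ± 0.25 of 9-residue, 52.7% ± 4.0 of long and 5.41% ± 1.18 of short clonotypes, lower than in the 9-residue class in 6 of 6 libraries for each (exact sign-flip p = 0.03125, adjusted p = 0.0506). The place of a residue counted from the end of the loop depends in part on the length that defined the classes, so this describes the loops and is no independent comparison of them. Between groups, long loops had this proline in 52.5% and 51.6% in WT B-1a and 60.6% and 51.0% in Igll1-/- B-1a libraries. WT B-2 libraries had it in 49.7% and 50.8%. All 4 B-1a libraries thus lay above both WT B-2 libraries, most of them only slightly. The mean differences were 1.81 percentage points in WT and 5.53 in Igll1-/- cells (exact p = 0.3333, adjusted p = 1 over 18 comparisons of end motifs). Weighted by reads, the difference for WT B-1a cells was -6.42 percentage points.

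J gene use set short loops apart from the others. IGKJ1 was found in 32.2% ± 4.8 of short and 23.6% ± 3.4 of 9-residue clonotypes (SD, n = 6), higher among the short in 6 of 6 libraries (exact sign-flip p = 0.03125, adjusted p = 0.0506). In long clonotypes it was found in 23.2% ± 3.9, above the 9-residue value in 3 of 6 libraries (exact p = 0.906). IGKJ2 was found in 19.3% ± 4.8 of short and 24.5% ± 2.4 of 9-residue clonotypes, lower in 5 of 6 libraries (exact p = 0.0625, adjusted p = 0.0924).

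The groups also differed in J use within the classes. IGKJ5, the J gene farthest from the V genes, was found in 53.1% and 53.3% of short clonotypes in WT B-1a, 43.3% and 51.1% in Igll1-/- B-1a and 38.4% and 38.2% in WT B-2 libraries. The 3 groups did not overlap. IGKJ2 took the opposite course between cell types, with 14.8% and 20.03% in WT B-1a, 16.9% and 14.3% in Igll1-/- B-1a and 25.6% and 24.1% in WT B-2 libraries. IGKJ1 was found in 29.9% and 24.0% of short clonotypes in WT B-1a and in 37.9% and 32.7% in Igll1-/- B-1a libraries, with WT B-2 libraries at 33.2% and 35.3%. In long clonotypes IGKJ5 was found in 59.4% and 47.5% in WT B-1a, 48.8% and 58.0% in Igll1-/- B-1a and 41.5% and 42.2% in WT B-2 libraries, so that every B-1a library lay above both WT B-2 libraries. In 9-residue clonotypes IGKJ5 ranged only from 46.3% to 50.9%. Where groups did not overlap, the exact p was 0.3333, the smallest the design allows (adjusted p = 0.571 over 24 comparisons of J genes). Weighted by reads, the short IGKJ5 share of Igll1-/- B-1a cells no longer exceeded that of WT B-2 cells, at -0.924 percentage points.

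**Figure D4:**
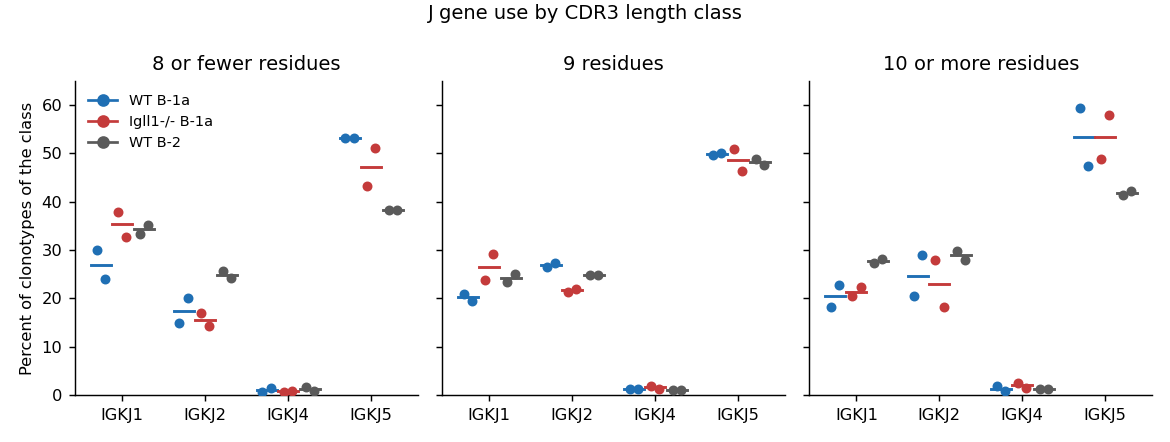
Percent of clonotypes of the short, 9-residue and long classes that used each of 4 J genes. Points are libraries and bars group means of 2. IGKJ5 in short clonotypes lies at 53.1% and 53.3% in WT B-1a and at 38.4% and 38.2% in WT B-2 libraries, while the 9-residue values lie between 46.3% and 50.9%.

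To find V genes whose short or long clonotypes differed between groups, productive clonotypes were counted by V gene and length class, and the counts were tested in edgeR by quasi-likelihood. Of the V genes seen with short clonotypes, 30 of 90 had enough of them to be tested (at least 10 in at least 2 libraries), and of those with long clonotypes 35 of 95. The tested features held 78.4% of the short and 75.7% of the long class. Between Igll1-/- and WT B-1a cells, 7 of these 65 features passed an adjusted p of 0.05, or 10.8%, while 11.3% of all 142 features passed, 9-residue ones included. Of these 7, 6 were long and 1 short, and 2 rose and 5 fell in Igll1-/- cells. Between Igll1-/- B-1a and WT B-2 cells 4 of 65 passed, all long, against 8.45% of all features. Between WT B-1a and WT B-2 cells 1 long feature passed, against 2.82% of all features. In each comparison the share called among short and long features did not exceed the share among all. The median log2 difference between Igll1-/- and WT B-1a cells was 0.09 over the 30 short, -0.41 over the 35 long and -0.12 over all 142 features. Against WT B-2 cells, the Igll1-/- medians were -0.29, -1.003 and -0.40, and the WT B-1a medians -0.23, -0.40 and -0.24. Features could enter the test through the WT B-2 libraries alone, so medians against WT B-2 cells depend in part on this filter. Without WT B-2 replicate 1 or without replicate 2, 52 rather than 65 short and long features entered. Comparisons that share a group share its libraries and are not independent.

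Long clonotypes of IGKV4-91, a gene enriched in B-1a cells for which a primer of its own was added, numbered 72 and 54 in WT B-1a, 9 and 8 in Igll1-/- B-1a and 18 and 12 in WT B-2 libraries. They were 1.02% ± 0.18, 0.157% ± 0.035 and 0.196% ± 0.054 of productive clonotypes (SD, n = 2 each). Both WT B-1a libraries stood far above the other 4. Long IGKV4-91 clonotypes fell in Igll1-/- against WT B-1a cells (log2 difference -2.70, SE 0.47, edgeR adjusted p = 0.00574) and were higher in WT B-1a than in WT B-2 cells (2.37, SE 0.44, adjusted p = 0.0193). The call against WT B-2 cells was lost in 6 of 16 alternative fits. The fit without loops of 13 or more residues was among them, with a smallest edgeR adjusted p of 0.0780 for short and long features. For the 9-residue clonotypes of the same gene the log2 differences were -0.82 (adjusted p = 0.00574) and 2.22. Short IGKV4-91 clonotypes numbered 51 and 50 in WT B-1a, 8 and 24 in Igll1-/- B-1a and 15 and 17 in WT B-2 libraries, with adjusted p-values of 0.0771 and 0.0801 in the same comparisons.

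IGKV15-103 and IGKV1-110 moved the other way. Long IGKV15-103 clonotypes numbered 5 and 6 in WT B-1a, 34 and 35 in Igll1-/- B-1a and 9 and 6 in WT B-2 libraries, so both Igll1-/- libraries exceeded all others. They rose in Igll1-/- against WT B-1a (log2 difference 2.79, SE 0.50, edgeR adjusted p = 0.00574) and against WT B-2 cells (2.66, SE 0.48, adjusted p = 0.00799). Only the Igll1-/- libraries reached the minimum count for testing, so entry to the test depended on the group in which these clonotypes were high. Without this minimum both calls held (edgeR adjusted p = 0.0182 and 0.0220). They were lost in 2 of 13 and 3 of 13 alternative fits. The 9-residue clonotypes of IGKV15-103 differed by 1.15 in both comparisons. Long IGKV1-110 clonotypes numbered 55 and 52, 83 and 117, and 69 and 91 in the same order of groups. They rose in Igll1-/- against WT B-1a cells (log2 difference 1.05, SE 0.27, adjusted p = 0.0331), beside 0.78 for 9 residues, while the short ones, 35 and 41 against 42 and 28 clonotypes, had an adjusted p of 0.910. The call for long IGKV1-110 clonotypes was lost in 9 of 16 alternative fits.

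Long or short clonotypes of other V genes fell in Igll1-/- B-1a cells while the 9-residue clonotypes of the same genes did not pass. Long clonotypes of IGKV4-57-1 numbered 46 and 37 in WT B-1a, 8 and 4 in Igll1-/- B-1a and 20 and 18 in WT B-2 libraries. The log2 difference between the B-1a genotypes was -2.58 (SE 0.53, edgeR adjusted p = 0.0121), beside -0.33 for 9 residues (adjusted p = 0.725). Long clonotypes of IGKV6-15 numbered 18 and 16, 0 and 2, and 14 and 13. They fell in Igll1-/- against WT B-1a (-3.80, SE 0.76, adjusted p = 0.0116) and against WT B-2 cells (-3.16, SE 0.79, adjusted p = 0.0368), while the 9-residue differences were -0.25 and -0.20. The call against WT B-2 cells was lost in 10 of 14 alternative fits, TMM scaling and DESeq2 among them, and the call against WT B-1a cells was lost without loops of 13 or more residues (-2.91, edgeR adjusted p = 0.115). Long clonotypes of IGKV1-122 numbered 13 and 5, 1 and 0, and 6 and 10, with a log2 difference of -3.74 between the B-1a genotypes (SE 1.01, adjusted p = 0.0434), beside -2.05 for 9 residues (adjusted p = 0.0802). Only WT B-1a replicate 1 and WT B-2 replicate 2 reached the minimum count for testing, so entry to the test depended on groups that were high. The call for long IGKV1-122 clonotypes was lost in 7 of 11 alternative fits. Short clonotypes of IGKV8-24 numbered 49 and 19 in WT B-1a, 3 and 4 in Igll1-/- B-1a and 29 and 25 in WT B-2 libraries, and fell between the B-1a genotypes (-3.07, SE 0.64, adjusted p = 0.0129) beside -0.02 for 9 residues. From the summed clonotypes, the Igll1-/- to WT B-1a ratio was 0.0621 for long IGKV1-122 (exact 95% counting interval 0.00149 to 0.393) and 0.0658 for long IGKV6-15 (0.00766 to 0.257). Whether long or short clonotypes of a V gene moved differently from its 9-residue clonotypes was not tested.

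Against WT B-2 cells, long clonotypes of IGKV16-104 and IGKV6-23 also fell in Igll1-/- B-1a cells. The former numbered 2 and 1 in Igll1-/- B-1a and 22 and 15 in WT B-2 libraries, with 5 and 7 in WT B-1a (log2 difference -3.05, SE 0.64, edgeR adjusted p = 0.0177). The latter numbered 1 and 3 against 20 and 15, with 4 and 6 in WT B-1a (-2.60, SE 0.60, adjusted p = 0.0274). For both genes only the WT B-2 libraries reached the minimum count for testing, so entry to the test depended on the group that was high. Without this minimum neither passed (edgeR adjusted p = 0.0695 for IGKV16-104 and 0.108 for IGKV6-23). Their calls were lost in 3 of 13 and 7 of 12 alternative fits. Long clonotypes of IGKV14-126 numbered 14 and 9 in WT B-1a, 2 and 3 in Igll1-/- B-1a and 14 and 11 in WT B-2 libraries (adjusted p = 0.0581 between the B-1a genotypes). The V genes that supplied most short clonotypes did not pass in any comparison. IGKV8-21 had 75 and 57 short clonotypes in WT B-1a, 30 and 79 in Igll1-/- B-1a and 105 and 95 in WT B-2 libraries. IGKV8-27 had 52 and 49, 31 and 69, and 61 and 73, and IGKV8-30 had 93 and 30, 24 and 56, and 50 and 46. For these genes the replicates of Igll1-/- B-1a cells differed from each other by more than the groups did. IGKV4-80 behaved likewise, with 61 and 16 short clonotypes in Igll1-/- B-1a libraries.

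**Figure D5:**
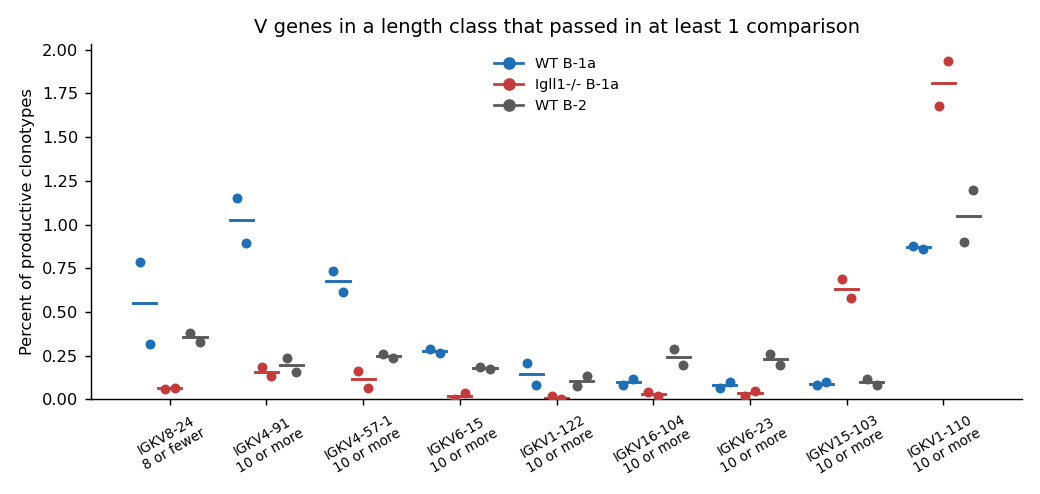
Percent of productive clonotypes for each V gene and length class that passed an edgeR adjusted p of 0.05 in at least 1 comparison. Points are libraries and bars group means of 2. Long IGKV4-91 clonotypes lie at 1.15% and 0.895% in WT B-1a libraries and between 0.132% and 0.235% in the others, and long IGKV15-103 clonotypes are highest in Igll1-/- B-1a libraries.

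These calls rested on few clonotypes and on single libraries. The 7 calls between the B-1a genotypes became 0 without WT B-1a replicate 1, 16 without Igll1-/- replicate 1, 14 without Igll1-/- replicate 2 and 4 without either WT B-2 replicate, whose spread the fit shares. Between Igll1-/- B-1a and WT B-2 cells the 4 calls became 21 and 14 without Igll1-/- replicate 1 or 2, and 0 without either WT B-2 replicate. The call between WT B-1a and WT B-2 cells was lost without any 1 of those 4 libraries. Without either Igll1-/- replicate more short and long features were called in this comparison, and so were more of all features. Over all features, 25.7% and 26.6% were called between the B-1a genotypes without Igll1-/- replicate 1 or 2, beside 25.4% and 22.6% of short and long features, and the calls of Igll1-/- B-1a against WT B-2 cells likewise reached 32.1% and 31.7% of all features. In the alternative fits that gave a value for them, the named calls did not change direction. Among clonotypes with at least 10 reads, only 8 short or long features could be tested, and 0 passed in any comparison. Of all 35 features tested there, 20%, 20% and 8.57% passed, in the order of comparisons used above.

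Single CDR3s were then followed across libraries, taking V gene and amino acid sequence together. The short class held 2670 distinct CDR3s, of which 75 (2.81%) were found in all 6 libraries and 1904 in only 1. The long class held 3245, of which 32 (0.986%) were found in all 6 and 2594 in only 1. Of 9-residue CDR3s, 5.65% were found in all 6. The shared short CDR3s held 54.8% to 74.2% of the short reads of a library, and the shared long CDR3s 28.5% to 44.6% of the long reads. Both lay below the 87.8% to 95.1% of 9-residue reads held by the shared 9-residue CDR3s. Of the 75, 24 belonged to IGKV8-27 (10), IGKV8-21 (9) and IGKV8-30 (5), and 56 had no proline in the last 4 residues. Of the 32, 11 belonged to IGKV1-110 and 26 ended in Pro-Pro-x-Thr. Counting CDR3s found in both libraries of 1 group and in no library of the others, there were 27 short and 25 long in WT B-1a, 14 and 15 in Igll1-/- B-1a and 71 and 73 in WT B-2 cells. Of 9-residue CDR3s there were 259, 123 and 291. As a share of the distinct CDR3s of a class, this was 2.66% of short, 2.25% of long and 2.16% of 9-residue CDR3s for WT B-2 cells. It was 1.01%, 0.770% and 1.92% for WT B-1a and 0.524%, 0.462% and 0.913% for Igll1-/- B-1a cells. With at least 10 reads required in a library, the short and long counts became 1 and 3, 1 and 0, and 13 and 26, and the 9-residue counts 10, 0 and 8. At that minimum there were 525 short, 558 long and 1390 9-residue CDR3s. The shares were then 2.48%, 4.66% and 0.576% for WT B-2 and 0.190%, 0.538% and 0.719% for WT B-1a cells. For Igll1-/- B-1a cells they were 0.190%, 0% and 0%.

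Short loops found in all 6 libraries were ordered by their lowest share of reads in any library. HQYLSSLT of IGKV8-27 came first, with 726 and 761 reads in WT B-1a, 424 and 1615 in Igll1-/- B-1a and 758 and 936 in WT B-2 libraries, and never fell under 0.204% of productive reads. KQSYNLLT of IGKV8-21 came next, with 1381 and 1700 reads in WT B-1a, 344 and 1371 in Igll1-/- B-1a and 1659 and 1724 in WT B-2 libraries, or 0.165% to 0.728% of productive reads. KQSYNLLT ranked first among short CDR3s in 3 of 6 libraries. QQYYSYLT of IGKV8-30 had 821 and 567, 216 and 306, and 489 and 567 reads, and HQYLSSYT of IGKV8-27 and QQWNYPLT of IGKV4-86 followed in this order. For KQSYNLLT both Igll1-/- libraries lay below the other 4, by percent of reads. The stem KQSYNL was found in 33 different 8-residue CDR3s of IGKV8-21, which held 37.1% of its 383 clonotypes of that length, and HQYLSS in 22 of IGKV8-27, which held 37.3% of 295. KQSYNLWT, with Trp as its last-but-one residue, was 99.6% IGKJ1 and had 84, 211, 118, 2450, 619 and 514 reads in the 6 libraries, in the order WT B-1a, Igll1-/- B-1a and WT B-2. KQSYNLYT, with Tyr, was 99.7% IGKJ2 and had 231, 319, 210, 1, 828 and 1141 reads. KQSYNLPT, with Pro, was less tied to a J gene, with 70.3% of its reads from IGKJ5. It had 696, 86, 7, 297, 749 and 624 reads.

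Other short loops were large in a single library or group. QQGSSILT of IGKV4-91 was named for its high read share in WT B-1a cells. It had 884 and 1307 reads there, 5 and 9 in Igll1-/- B-1a and 224 and 74 in WT B-2 libraries, so the groups did not overlap. KQSYKLT of IGKV8-21 met the minimum of 10 reads in 2 libraries only through WT B-1a cells. It had 114 and 130 reads in their libraries and 0 in the other 4. By contrast QQHYSTLT of IGKV8-24 had 2228 reads in WT B-1a replicate 1 but 122 in replicate 2, with 1 and 2 in Igll1-/- B-1a and 5 and 40 in WT B-2 libraries. QQYYSYPT of IGKV8-30 had 2940 reads in WT B-1a replicate 1 and 88 in replicate 2. In Igll1-/- replicate 1, QQGNTLWT of IGKV10-96 had 3852 reads and HQWSSYPT of IGKV4-80 had 2511, against 28 and 6 in replicate 2. The shortest loops with at least 10 reads in at least 2 libraries had 7 residues, and there were 23 of them. HQWSSWT of IGKV4-80 had the highest single value, 1138 reads in Igll1-/- replicate 1 and 2 in replicate 2. KQSYNLT of IGKV8-21 had 240 and 233 reads in WT B-1a, 3 and 0 in Igll1-/- B-1a and 569 and 309 in WT B-2 libraries.

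Among long loops SQSTHVPPLT of IGKV1-110 had 1064 and 973 reads in WT B-1a, 248 and 3100 in Igll1-/- B-1a and 1245 and 1389 in WT B-2 libraries and ranked first in 4 of 6 libraries. Its IGKJ2 and IGKJ1 counterparts SQSTHVPPYT and SQSTHVPPWT had 157 to 605 and 196 to 560 reads. The stem SQSTHVPP was found in 25 different 10-residue CDR3s, which held 24.1% of the 419 clonotypes of IGKV1-110 of that length. QQSNSWPTLT of IGKV5-48 had 200 to 269 reads in the 4 B-1a libraries and 579 and 434 in WT B-2 libraries. QQWSSSPPIT of IGKV4-77 had 70 to 703. QQWSSNPPIT, listed under IGKV4-59 or IGKV4-68, had 5 and 347 in WT B-1a, 104 and 206 in Igll1-/- B-1a and 286 and 485 in WT B-2 libraries.

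Some long loops were named for their high read share in WT B-1a cells, so that they stood high there by selection. QQYSGYPLIT of IGKV4-57-1 had 727 and 1326 reads in WT B-1a, 5 and 1 in Igll1-/- B-1a and 295 and 228 in WT B-2 libraries, and the groups did not overlap. QQGSSIPRIT of IGKV4-91 had 578 and 974, 0 and 92, and 29 and 138 reads. The stem QQGSSIP was found in 22 different 10-residue CDR3s of IGKV4-91, 13 and 11 of them in WT B-1a, 3 and 2 in Igll1-/- B-1a and 3 and 4 in WT B-2 libraries. Other long loops belonged almost to 1 library. QQWSSYPPTLT of IGKV4-55, with 11 residues, had 2705 reads in Igll1-/- replicate 2 and 0 to 18 elsewhere. QQWSSNPPGA, listed under IGKV4-59 or IGKV4-68, had 1511 reads in Igll1-/- replicate 1 and 0 elsewhere. SQSTHVLPYT of IGKV1-110 had 1435 reads in Igll1-/- replicate 1 and 0 to 3 elsewhere, and QHSWEIPTWT of IGKV3-7 had 762 in WT B-1a replicate 1 and 0 to 2 elsewhere. QQSNSWPYMYT, listed under IGKV5-43 or IGKV5-45, was spread more widely, with 857 reads in WT B-1a replicate 1, 165 in Igll1-/- replicate 2, 51 in WT B-2 replicate 2 and 0 in the other 3 libraries. The longest loop with at least 10 reads in at least 2 libraries was FQGSHVPPYMYT of IGKV1-117, with 12 residues and 40 reads in WT B-1a replicate 2 and 20 in each WT B-2 library.

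When reads per CDR3 were fitted in edgeR by quasi-likelihood, 208 of 2670 short and 212 of 3245 long CDR3s had enough reads to enter, among 1219 CDR3s of all lengths. None passed in any of the 3 comparisons (0% of all CDR3s), and the smallest adjusted p of a short or long CDR3 was 0.143 between the B-1a genotypes, 0.124 between Igll1-/- B-1a and WT B-2 cells and 0.200 between WT B-1a and WT B-2 cells. At an unadjusted p under 0.05 there were 66, 140 and 81 of the 420 short or long CDR3s, and 220, 314 and 198 of all 1219. DESeq2 called 57, 53 and 15 short or long CDR3s, which is 13.6%, 12.6% and 3.57% of those tested, beside 11.9%, 12.4% and 4.1% of all CDR3s. An edgeR fit without the filter on reads called 13, 9 and 1 of 5915, beside 0.15%, 0.129% and 0.0258% of all 19392 CDR3s.

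Finally, the support behind unusual lengths was compared with that of 9-residue clonotypes. A short clonotype had on average 27.5 ± 3.1 reads and a long one 18.8 ± 2.7, against 45.7 ± 2.8 for 9 residues (SD, n = 6), lower in 6 of 6 libraries for either class (exact sign-flip p = 0.03125, adjusted p = 0.0506). The share resting on 1 read was 55.2% ± 3.6 in short, 61.4% ± 4.6 in long and 56.2% ± 0.98 in 9-residue clonotypes. A CDR3 that differed by 1 inserted or deleted residue from a clonotype of the same V and J gene with at least 10 times its reads was found for 16.9% ± 3.7 of short, 22.6% ± 4.8 of long and 0.537% ± 0.239 of 9-residue clonotypes. A CDR3 that differed from such a clonotype by 1 substituted residue was found for 43.5% ± 4.9 of short, 32.1% ± 5.4 of long and 65.9% ± 1.03 of 9-residue clonotypes, the opposite order. An insertion or deletion of 1 residue changes the length class only from or to 9 residues. Most large clonotypes have 9 residues, so these shares are a description without a test. Clonotypes that differed by 1 residue, substituted, inserted or deleted, from such a larger clonotype were then merged into it. The short share after merging was 13.1% and 12.99% in WT B-1a, 13.6% and 10.3% in Igll1-/- B-1a and 15.99% and 16.03% in WT B-2 libraries, and the long shares of WT B-1a (16.8% and 14.9%) and WT B-2 cells (16.3% and 17.3%) overlapped.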

How the data were processed

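Cells were sorted, their genomic DNA was amplified with Vκ and Jκ primers (a degenerate V primer plus primers for some B-1a-biased V genes), and gel-selected products of 100 to 280 bp were sequenced. The authors used IMGT/High-V-QUEST to name the V and J gene of each read and grouped reads into clonotypes with IMGT/StatClonotype (versions not given in the sources used here). The deposited count of a clonotype is its number of reads, not normalized and without molecular identifiers. The deposited percent value is the identity of the V region to its germline gene, which was at least 85% in every clonotype. Reads come from PCR products, so read shares and low-read clonotypes carry amplification and sequencing error.

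Members and gene lists were chosen with earlier results of these data known. Productive clonotypes were split by CDR3 length, and shares were compared between 2 libraries and 2 by exact permutation tests (two-sided). Each class was set against 9 residues by exact sign-flip tests over 6 libraries, chosen after the values were seen. Clonotypes per V gene and length class (V assigned to a single gene), and reads per CDR3, were fitted over all 6 libraries with edgeR 4.0.16 (R 4.3.3) by quasi-likelihood, with library size scaling, after keeping features with at least 10 counts in at least 2 libraries and with Benjamini-Hochberg adjustment at 0.05. Scripts were tested on simulated data. Other steps used Python 3.11.15, pandas 2.3.3 and scipy 1.17.1. Alternatives were TMM scaling, DESeq2 1.42.0, no filter, read minimums, weighting by reads, merging of near-identical clonotypes and each library left out. V genes were named if called (up to 5 in each direction per comparison and class, by difference in percent of clonotypes), with the 5 largest of each class, IGKV4-91 and IGKV14-126. CDR3s were named by the 5 highest mean read shares in each group and class, the 5 with the highest lowest share in all 6 libraries, and the shortest and longest with at least 10 reads in at least 2 libraries. The stems, the motifs of very long loops and the 9-residue ending were singled out after their values were seen. Nothing in the sources says which mice stand behind a library, so p-values measure only the spread between libraries, which may be technical.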

Additional observations from a re-analysis of the deposited data

How the results depend on the processing

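Of 84 alternative values of the differences in short and long share, 80 kept their direction. These include, for each of the 6 differences, a value blocked by replicate number. It equals the main value by construction and could not change direction. The short share of Igll1-/- minus WT B-1a cells, -0.48 percentage points, became 0.550 with 7 or fewer residues as the limit, and ran from -1.52 to 0.555 when single libraries were left out. The long share for the same pair became 0.203 by reads. With 11 or more residues as the limit, the long differences shrank from -1.52, -3.03 and -1.51 to -0.0385, -0.417 and -0.378 (Igll1-/- minus WT B-1a, Igll1-/- B-1a minus WT B-2 and WT B-1a minus WT B-2) and all groups overlapped. Without WT B-1a replicate 1 or 2, WT B-1a minus WT B-2 was -2.21 or -0.810 and Igll1-/- minus WT B-1a -0.816 or -2.22. Weighted by reads, IGKJ5 in short and IGKJ2 in long clonotypes of Igll1-/- B-1a minus WT B-2 cells were -0.924 and 1.01, and a proline before the last 2 residues of long clonotypes in WT B-1a minus WT B-2 cells was -6.42. For V genes by length class, calls among short and long features are given for Igll1-/- against WT B-1a, Igll1-/- B-1a against WT B-2 and WT B-1a against WT B-2 cells, where the counts were 7, 4 and 1. They became 1, 1 and 0 by reads, 3, 2 and 2 after merging near-identical clonotypes, and 0, 0 and 0 with at least 10 reads (chosen after seeing the data). The short and long features tested numbered 65 in the main fit, 145 by reads, 25 after merging and 8 with at least 10 reads. Of all features, 2.09%, 1.67% and 0.837% passed by reads and 20%, 20% and 8.57% with at least 10 reads. After merging, 12%, 8% and 8% of short and long features passed, beside 7.95%, 12.5% and 4.55% of all. The second count, 4 in the main fit, became 1 with DESeq2, 1 without the filter and 0 with at least 2 reads. It became 2 without CDR3s of 13 or more residues (chosen after seeing the data). Of all features, 6.34%, 2.44%, 8.99% and 7.09% passed in these 4 fits. The last count, 1 in the main fit, became 2 with TMM scaling, 2 with DESeq2 and 0 without CDR3s of 13 or more residues. Of all features, 3.52%, 3.52% and 2.13% passed in these fits. With single libraries left out the counts ran from 0 to 16, from 0 to 21 and from 0 to 10. Of 169 alternative fits of the 12 called differences named, 112 passed, 57 did not and 0 changed direction. For CDR3s by reads, where edgeR called 0, DESeq2 called 57, 53 and 15 and edgeR without the filter 13, 9 and 1. The cause of these changes was not tested.

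Replicate numbers did not pair the libraries (correlations of same-numbered deviations of 0.0442, -0.183 and 0.0401 over V gene features). With the replicate number as a block, the V gene calls among short and long features were 5, 3 and 1, beside 9.86%, 7.04% and 2.11% of all features. The CDR3 calls were 0, 0 and 0. The crossed pairing, chosen after seeing the data, gave 9 calls for Igll1-/- B-1a against WT B-2 cells. With 2 libraries a group and 4946 to 7662 productive clonotypes each, replicates differed by more than sampling noise, and no exact test between groups could pass 0.05.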
